A study of Mus musculus with 24 samples.

Results

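The 6 arrays compared here are the lungs of mice that received C-DEP particles with ovalbumin (CDEP/OVA, n = 3) and of mice that received C-DEP particles alone (CDEP, n = 3). They were taken by sample title from 24 arrays in 8 groups of 3. All mice were female BALB/C, an inbred laboratory strain, 8 to 10 weeks old. Both groups were given 150 ug of C-DEP, a diesel exhaust particle sample, through the nose on days 0 and 13, and lungs were taken 18 hours after the last dose. The CDEP/OVA mice also received 20 ug of ovalbumin (OVA), an egg white protein used as a model allergen, and are labelled as sensitized. The other groups received OVA with N-DEP particles (NDEP/OVA), on A-DEP particles (ADEP/OVA) or in saline (Saline/OVA), with NDEP, ADEP and Saline groups as their references. The series title calls the particles chemically distinct. The comparison asks what the allergen added in lungs that met the same particle.

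Inhaled allergen drives a type 2 response in sensitized lungs, in which interleukins 4 and 13 act on airway epithelium and macrophages. Epithelial cells then become mucus-secreting goblet cells, and macrophages turn on arginase and chitinase-like proteins. Interferon-gamma, the cytokine of type 1 responses, acts on a different programme of chemokines, antigen-processing genes and immunity-related GTPases. Diesel particles are known as adjuvants that can strengthen responses to an allergen given with them.

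Values are log2 intensities, and each gene stands for its brightest probe set, which gave 12393 genes. A gene was called where its limma adjusted p was under 0.05. A gene is called dim in a group where its mean fell below the lower quartile of every array of that group (quartiles of 4.45 to 4.64 log2 units), and the size of its change is then uncertain. Lung markers were bright in both groups, with Scgb1a1, the club cell secretory protein gene, at 13.88 ± 0.11 in CDEP/OVA and 13.99 ± 0.17 in CDEP lungs (SD, n = 3 each). The surfactant gene Sftpc stood at 13.71 ± 0.07 in CDEP/OVA and 13.79 ± 0.06 in CDEP lungs. The groups also differed in measures of RNA quality. The difference between the 3′ and 5′ Gapdh control probe sets, which grows as RNA is broken down, was 0.396 ± 0.196 in CDEP/OVA and 0.0607 ± 0.0617 in CDEP lungs. The same difference for Actb was 1.02 ± 0.193 in CDEP/OVA and 0.658 ± 0.0271 in CDEP lungs. Neither measure overlapped between the groups (exact permutation p = 0.1, two-sided, the smallest that 3 against 3 allows). A fit with both measures as covariates is given beside the main gene groups, and their part in the results was not tested otherwise.

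Of 12393 genes, 238 (1.92%) were higher and 206 (1.66%) were lower in CDEP/OVA than in CDEP lungs, 444 (3.58%) in all. A change of at least 2-fold was seen in 34 of the higher genes (0.274% of genes tested) and in 3 of the lower genes (0.0242%). The median log2 fold change of all genes was -0.01. The arrays of the groups did not overlap for 436 of the 444 genes (3.52% of genes tested). Over all genes, called or not, they did not overlap for 1676 higher (13.5%) and 1777 lower genes (14.3%). The 15 highest and 15 lowest called genes named below were chosen among those without overlap, so their separation follows from that choice. The total of 444 called genes depended on single mice. It was 374, 187 and 163 without CDEP/OVA replicates 1, 2 and 3, and 204, 98 and 221 without CDEP replicates 1, 2 and 3. With any of the 6 arrays left out, 49 higher and 21 lower genes stayed past the threshold, among them all 15 of the highest and 3 of the 15 lowest. With the RNA quality covariates, 42 of the 238 higher and 10 of the 206 lower genes passed, and all 444 kept their sign. In bulk lung, more cells of a type and more RNA per cell cannot be told apart.

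Mucus and goblet cell genes rose with OVA: 11 of 14 measured members were higher and none was lower, with a median log2 fold change of 1.20. Clca1, a protein secreted by goblet cells into mucus, had 11.96, 11.51 and 12.33 log2 units in CDEP/OVA lungs, against 5.20, 3.87 and 7.29 in CDEP lungs. The groups were far apart, and the CDEP lungs themselves ranged widely, with replicate 3 highest. Its log2 fold change was 6.48 ± 0.90 (SE, adjusted p = 0.000129), with a 95% interval of 4.63 to 8.33, or 89.2-fold at the point estimate. The fold was 51.5 without CDEP replicate 2 and 169 without CDEP replicate 3, the lowest and highest with 1 array left out. A far dimmer probe set of Clca1 rose by 1.45 ± 0.20. Agr2, a disulfide isomerase that folds mucins, had 9.34, 9.19 and 9.83 log2 units in CDEP/OVA lungs, against 6.17, 5.88 and 6.68 in CDEP lungs. All 3 CDEP/OVA lungs stood above all CDEP lungs, by 3.21 ± 0.45 (SE, adjusted p = 0.000144) on the log2 scale. Muc5ac, the gel-forming mucin of goblet cells, had 7.78, 7.92 and 8.55 log2 units in CDEP/OVA lungs, against 6.32, 6.38 and 6.13 in CDEP lungs. Here the CDEP lungs lay close together and replicate 3 was the highest CDEP/OVA lung. The log2 fold change of Muc5ac was 1.80 ± 0.18 (SE, adjusted p = 1.14e-06).

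Slc26a4, which encodes the anion exchanger pendrin of airway epithelium, had 10.01, 10.32 and 9.59 log2 units in CDEP/OVA lungs, against 8.10, 7.70 and 7.66 in CDEP lungs. Its groups did not overlap, and OVA added 2.15 ± 0.29 (SE, adjusted p = 0.000111). Particles alone had already raised it, since CDEP lungs exceeded Saline lungs by 2.06 ± 0.29 (SE, adjusted p = 0.00066), in a comparison that shares the CDEP arrays. Fcgbp, a mucus protein that binds the Fc part of IgG, had 8.84, 8.18 and 9.20 log2 units in CDEP/OVA lungs, against 6.82, 6.83 and 7.30 in CDEP lungs, a log2 fold change of 1.76 ± 0.25 (SE, adjusted p = 0.000144). The other called members, picked after their values were seen, were smaller. They were Itln1 (1.25 ± 0.19), the trefoil peptide gene Tff2 (1.20 ± 0.23), Bpifb1 (1.19 ± 0.31), the goblet cell stress sensor Ern2 (0.91 ± 0.17) and the transcription factor genes Foxa3 (0.68 ± 0.14) and Spdef (0.65 ± 0.16). Muc5b, the other gel-forming airway mucin, missed the threshold at 0.94 ± 0.28 (SE, adjusted p = 0.0584). With the RNA quality covariates the list median was 0.69 and 3 of the 11 passed. Clca1 then stood at 5.36 ± 1.19 (adjusted p = 0.0313), Muc5ac at 1.49 ± 0.18 (adjusted p = 7.99e-05) and Slc26a4 at 2.42 ± 0.39 (adjusted p = 0.00173), while Agr2 at 1.97 ± 0.48 (adjusted p = 0.0609) and Fcgbp at 1.12 ± 0.26 (adjusted p = 0.0523) missed it. With each array left out in turn, 8 of the 11 passed every time.

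**Figure D1:**
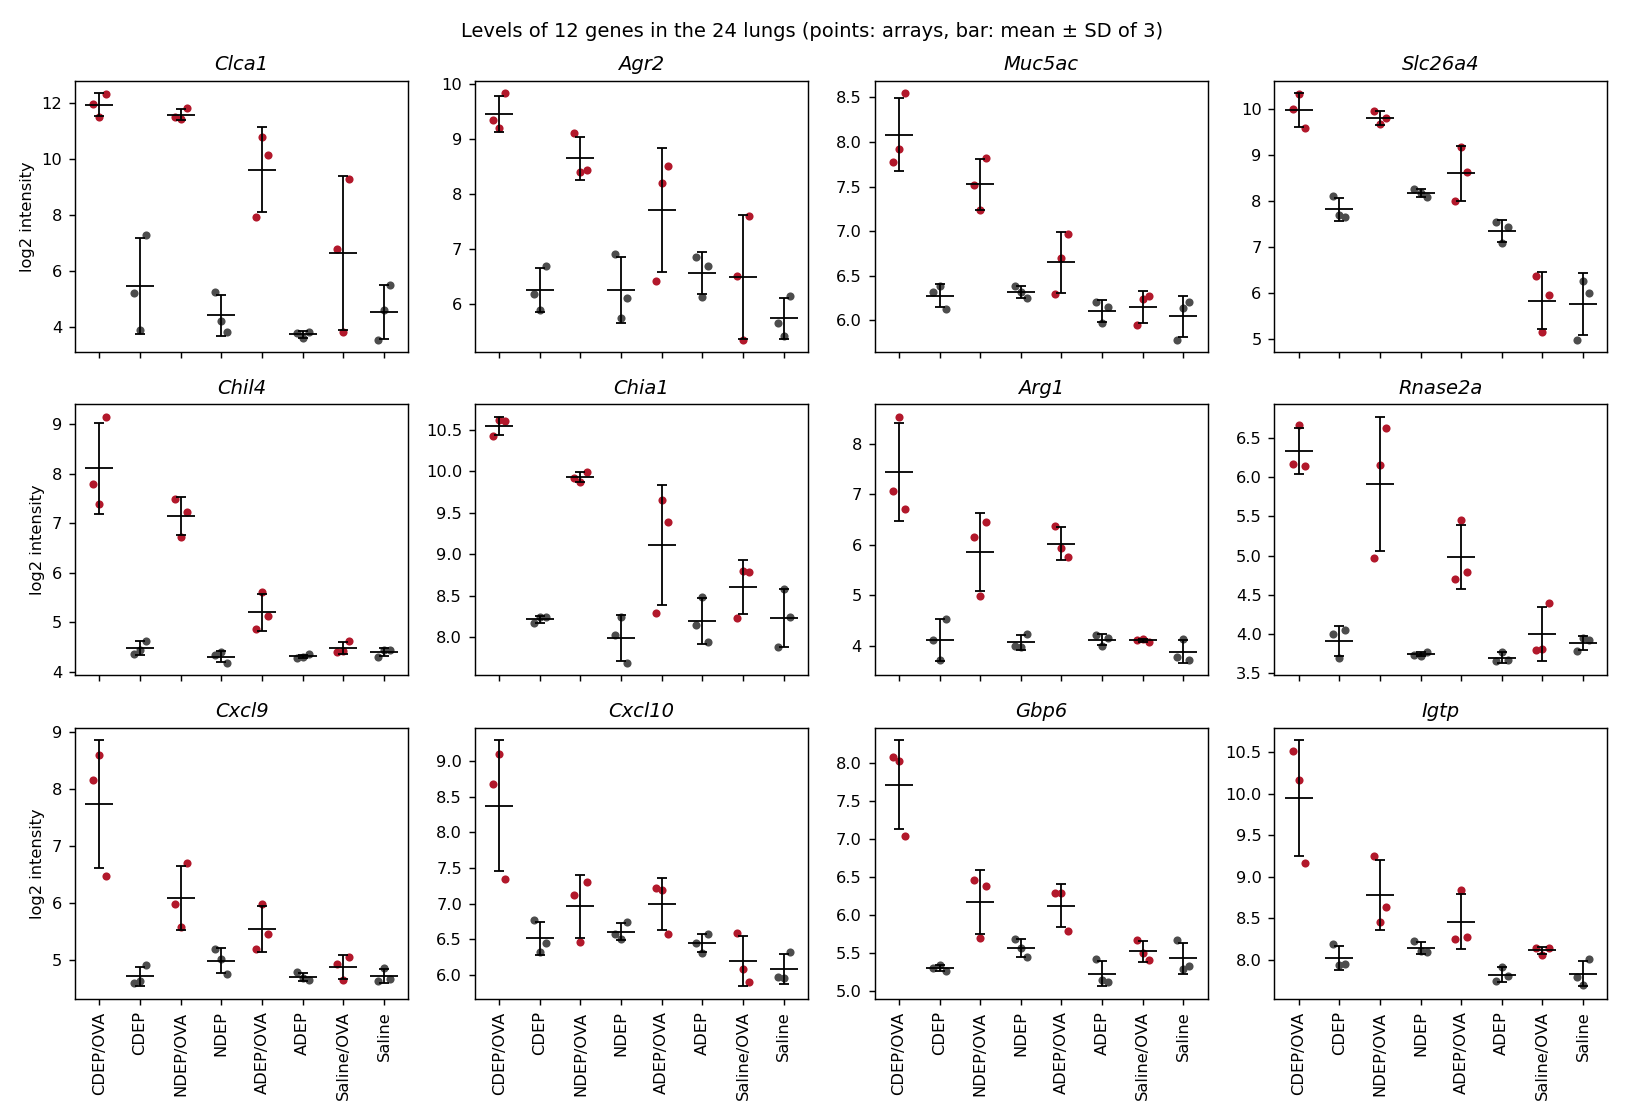
Log2 intensity of 12 genes on 24 arrays, one panel per gene with its own scale, groups on the horizontal axis with red points for OVA and grey for no OVA, and bars for mean ± SD of 3. For every gene shown the 3 CDEP/OVA lungs lie above the 3 CDEP lungs, as the rule that chose these genes required. CDEP/OVA replicate 3 is the lowest of its group for Cxcl9, Cxcl10, Gbp6 and Igtp and the highest for Clca1, Agr2, Muc5ac and Chil4.

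Chitinase family genes rose strongly: 3 of 5 measured members were higher, with a family median of 2.24, and all 3 passed with the RNA quality covariates and with any array left out. Chil4, a chitinase-like lectin (Ym2) without chitinase activity, had 7.79, 7.38 and 9.14 log2 units in CDEP/OVA lungs, against 4.36, 4.45 and 4.63 in CDEP lungs. It was dim in CDEP lungs and rose 12.3-fold, 3.62 ± 0.27 (SE, adjusted p = 9.6e-09) on the log2 scale, with replicate 3 highest. Chia1, the acidic chitinase that cuts chitin, had 10.42, 10.62 and 10.60 log2 units in CDEP/OVA lungs, against 8.17, 8.24 and 8.24 in CDEP lungs, and its replicates lay within narrow bands. Its log2 fold change was 2.33 ± 0.24 (SE, adjusted p = 1.17e-06). Chil3 (Ym1), the macrophage protein closely related to Chil4, had 10.57, 10.29 and 10.57 log2 units in CDEP/OVA lungs, against 8.30, 8.16 and 8.27 in CDEP lungs, a log2 fold change of 2.24 ± 0.33 (SE, adjusted p = 0.000299). Chil3 and Chil4 are similar in sequence, and cross-hybridisation between their probes was not tested.

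Of 13 genes of alternatively activated macrophages, 5 were higher, with a list median of 0.63. 2 of the 5 are Chil3 and Chil4. Arg1, which encodes arginase 1, had 7.06, 8.53 and 6.71 log2 units in CDEP/OVA lungs, against 4.11, 3.71 and 4.54 in CDEP lungs. CDEP/OVA replicate 2 was the highest lung, CDEP lungs were dim, and the groups did not overlap. Arg1 changed by 3.32 ± 0.33 (SE, adjusted p = 1.14e-06). The mannose receptor gene Mrc1 (0.63 ± 0.14, SE, adjusted p = 0.0197) and the lectin gene Mgl2 (0.66 ± 0.16, SE, adjusted p = 0.0237) rose less, and of the 5 genes 3 passed with the RNA quality covariates. Retnla, a resistin-like molecule often used as a marker of these cells, was bright in both groups, with 13.75, 13.60 and 13.74 log2 units in CDEP/OVA lungs, against 12.66, 12.75 and 12.93 in CDEP lungs. All CDEP/OVA values were above all CDEP values, as in 13.5% of all genes tested. The change of 0.92 ± 0.44 (SE, adjusted p = 0.232) missed the threshold.

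Of 15 genes of type 2 cytokines and their receptors 1 was higher and none lower (median -0.05), and 8 were dim in both groups. The 1 call was kept with the RNA quality covariates (median 0.02). Il13 was dim, with 4.40, 4.42 and 4.35 log2 units in CDEP/OVA lungs, against 4.31, 4.36 and 4.45 in CDEP lungs. Il5 was dim in both groups as well, with a difference of -0.05 ± 0.12 (SE, adjusted p = 0.828), and Il4 differed by -0.11 ± 0.12 (SE, adjusted p = 0.622). The exception was Il33, an alarmin that is released from epithelium, with 8.04, 8.91 and 8.18 log2 units in CDEP/OVA lungs, against 7.76, 7.56 and 7.17 in CDEP lungs. Il33 rose by 0.88 ± 0.22 (SE, adjusted p = 0.0299) but missed the threshold without any one of CDEP/OVA replicate 2, CDEP replicate 2 and CDEP replicate 3.

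Among 8 eosinophil markers 1 was higher and none lower, and 6 were dim in both groups. The list median was -0.11 (-0.08 with the RNA quality covariates), and 7 of the 8 values were below 0. The 1 call was kept with the RNA quality covariates. The one that rose was Rnase2a, an eosinophil-associated RNase (older name Ear11), with 6.17, 6.66 and 6.15 log2 units in CDEP/OVA lungs, against 4.0, 3.70 and 4.06 in CDEP lungs. It was dim in CDEP lungs and the groups were separate, at 2.41 ± 0.26 (SE, adjusted p = 3.48e-06). Epx, the eosinophil peroxidase gene, was dim in both groups and had 3.88, 3.74 and 3.80 log2 units in CDEP/OVA lungs, against 3.77, 4.18 and 3.96 in CDEP lungs, a difference of -0.16 ± 0.11 (SE, adjusted p = 0.398). Ccl11, which encodes the eosinophil attractant eotaxin, had 5.52, 5.89 and 5.53 log2 units in CDEP/OVA lungs, against 4.45, 4.78 and 4.5 in CDEP lungs. It rose in every CDEP/OVA lung relative to every CDEP lung, by 1.07 ± 0.14 (SE, adjusted p = 4.25e-05). Ccl11 and Ccl8 were the 2 called of 9 genes listed for eotaxins and type 2-recruiting chemokines. The median of these 9 was 0.05, and 4 had values below 0. Ccl8, whose product is a CCR8 ligand in mice, had 8.47, 8.83 and 7.75 log2 units in CDEP/OVA lungs, against 6.90, 7.16 and 6.95 in CDEP lungs, a change of 1.34 ± 0.25 (SE, adjusted p = 0.00383).

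Genes known to respond to interferon-gamma formed the other large set. Of 18 measured members 13 were higher and none was lower, with a median of 1.07. With the RNA quality covariates 12 of the 13 passed and the median was 1.22. Cxcl9, which encodes a chemokine for CXCR3-bearing T cells, had 8.15, 8.59 and 6.48 log2 units in CDEP/OVA lungs, against 4.60, 4.64 and 4.92 in CDEP lungs. Replicate 3 was the lowest CDEP/OVA lung and still stood above every CDEP lung. The log2 fold change was 3.02 ± 0.33 (SE, adjusted p = 3.48e-06). Cxcl10, a second CXCR3 ligand gene, had 8.68, 9.10 and 7.34 log2 units in CDEP/OVA lungs, against 6.77, 6.33 and 6.45 in CDEP lungs, a log2 fold change of 1.86 ± 0.29 (SE, adjusted p = 0.000428), with replicate 3 again lowest. Cxcl11, the remaining CXCR3 ligand gene, was picked after its values were seen and rose by 1.04 ± 0.22 (SE, adjusted p = 0.0136). The call of Cxcl11 was lost without CDEP replicate 2. A far dimmer probe set of Cxcl11 gave -0.12 ± 0.09 and missed the threshold.

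Antigen-processing genes moved in part. Tap1, a subunit of the peptide transporter, had 8.49, 8.11 and 7.41 log2 units in CDEP/OVA lungs. CDEP lungs had 6.68, 6.94 and 7.14, and the rise was 1.08 ± 0.20 (SE, adjusted p = 0.00433). The other, far dimmer probe sets of Tap1 gave -0.37 ± 0.15, -0.05 ± 0.11 and 0.03 ± 0.12, none past the threshold. The other subunit gene Tap2 (0.70 ± 0.17, SE, adjusted p = 0.0302) and the immunoproteasome gene Psmb9 (0.74 ± 0.18, SE, adjusted p = 0.0278) also rose, but Tap2 was called in 2 and Psmb9 in 2 of the 6 fits with 1 array left out, and both were lost without any one of CDEP/OVA replicate 1, CDEP/OVA replicate 2 and CDEP replicate 2. In the family of immunoproteasome, transporter and MHC class I genes these were the 3 called of 19, with a median of 0.21. With the RNA quality covariates 2 of the 3 passed (median 0.46), and with the heart and fat covariates 0 of the 3 (median 0.13). None of 7 MHC class II genes passed (median 0.31, and 0.54 with the RNA quality covariates). Irf1, a transcription factor gene induced by interferon, rose by 0.54 ± 0.14 (SE, adjusted p = 0.0299) and was called in 2 of the 6 fits with 1 array left out. Ifng, the interferon-gamma gene, was dim in both groups and differed by -0.07 ± 0.11 (SE, adjusted p = 0.721). Among genes picked after their values were seen, Cd274, which encodes the checkpoint ligand PD-L1, had 8.87, 8.58 and 7.46 log2 units in CDEP/OVA lungs, against 6.94, 6.92 and 6.55 in CDEP lungs, a rise of 1.5 ± 0.23 (SE, adjusted p = 0.000338). Ido1, a tryptophan-degrading enzyme gene, was dim in CDEP lungs and rose by 0.89 ± 0.14 (SE, adjusted p = 0.000569).

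Guanylate-binding proteins (GBPs) and immunity-related GTPases (IRGs), which attack the vacuoles of intracellular microbes, were higher without exception among the members measured. All 11 were called, with a median of 1.43, and 8 of them are also in the interferon-gamma list. All 11 passed with the RNA quality covariates, and 10 with any of the 6 arrays left out (Ifi47 was lost without any one of CDEP/OVA replicate 2, CDEP replicate 2 and CDEP replicate 3). The upstream sequences of 7 of them are shown because these carry the repeat to which interferon-activated factors bind. Stretches of 150 bases that end just before the start site are from RefSeq, GRCm38.p6, read 5′ to 3′ on the strand of the gene. Capitals mark, on either strand, GAAA repeated after any 2 bases (the type of the interferon-stimulated response element, ISRE) and TTCNNNGAA (the type of the gamma-activated site). Matches of the different motifs overlap in none of the stretches.
Igtp chr11:58199406-58199555 (+): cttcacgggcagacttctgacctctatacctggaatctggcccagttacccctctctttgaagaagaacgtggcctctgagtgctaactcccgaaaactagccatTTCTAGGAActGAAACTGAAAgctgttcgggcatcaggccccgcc
Irgm2 chr11:58214827-58214976 (+): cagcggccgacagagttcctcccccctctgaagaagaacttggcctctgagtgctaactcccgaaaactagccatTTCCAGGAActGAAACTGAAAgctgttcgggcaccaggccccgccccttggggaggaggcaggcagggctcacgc
Irgm1 chr11:48871421-48871570 (-): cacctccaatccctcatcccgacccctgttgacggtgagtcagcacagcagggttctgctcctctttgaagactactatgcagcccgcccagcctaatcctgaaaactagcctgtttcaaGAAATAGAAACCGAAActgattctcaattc
Gbp7 chr3:142530186-142530335 (+): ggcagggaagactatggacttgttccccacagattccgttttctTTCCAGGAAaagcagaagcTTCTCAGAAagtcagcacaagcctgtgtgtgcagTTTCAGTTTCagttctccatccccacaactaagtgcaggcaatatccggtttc
Gbp3 chr3:142559894-142560043 (+): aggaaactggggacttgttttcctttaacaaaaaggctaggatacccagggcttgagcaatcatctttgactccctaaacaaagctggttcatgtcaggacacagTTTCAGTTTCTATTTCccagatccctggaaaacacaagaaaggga
Gbp2 chr3:142620513-142620662 (+): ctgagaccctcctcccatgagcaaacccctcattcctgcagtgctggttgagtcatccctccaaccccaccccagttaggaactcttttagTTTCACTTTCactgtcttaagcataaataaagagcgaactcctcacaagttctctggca
Gbp2b chr3:142594697-142594846 (+): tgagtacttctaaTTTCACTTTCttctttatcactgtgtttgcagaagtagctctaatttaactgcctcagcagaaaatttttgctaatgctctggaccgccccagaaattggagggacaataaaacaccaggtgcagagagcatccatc

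RefSeq windows of 300 bases (250 before to 50 after the start) were at hand for 8 of the 11 genes. Of these 8, 7 held the ISRE-type repeat, against 3.44% of all 32851 windows. TTCNNNGAA was found in 3 of the 8 (Igtp, Irgm2 and Gbp7), against 8.3% of all windows. The ISRE-type match begins 34 bases before the start in Igtp and 64 bases before it in Irgm2. In Gbp3 and Irgm1 copies of the repeat overlap one another. Ifi47 held neither motif in its window. Among the 11 goblet and mucus genes called, 7 had windows, of which 1 held the ISRE-type repeat (Slc26a4). None of the 7 held TTC and GAA with 4 bases between them, the spacing favoured by STAT6, against 6.95% of all windows, while 1 of the 8 GTPase genes did (Gbp3). TTCNNNGAA was in 1 of the 7 goblet genes (Bpifb1) and in 2 of 5 called chitinase and macrophage genes (Chil3 and Chil4). It was in 0 of 2 genes of the CXCR3 ligands with a window, of which 1 held the ISRE-type repeat (Cxcl10). A match is a description of letters, not of factor binding.

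Gbp6 was called with the smallest p of these genes and had 8.08, 8.03 and 7.04 log2 units in CDEP/OVA lungs, against 5.30, 5.35 and 5.26 in CDEP lungs. The CDEP lungs lay within a narrow band, and each CDEP/OVA lung was well above it. It rose 5.32-fold, 2.41 ± 0.21 (SE, adjusted p = 1.6e-07) on the log2 scale. Iigp1, an IRG, had 11.00, 10.82 and 9.87 log2 units in CDEP/OVA lungs, against 8.45, 8.29 and 7.74 in CDEP lungs, a change of 2.40 ± 0.30 (SE, adjusted p = 3.84e-05). Igtp, another IRG, whose stretch carries both motifs, had 10.51, 10.16 and 9.17 log2 units in CDEP/OVA lungs, against 8.19, 7.94 and 7.95 in CDEP lungs. Replicate 3 was the lowest CDEP/OVA lung for these 3 genes. Igtp rose by 1.92 ± 0.22 (SE, adjusted p = 1.27e-05). The remaining 8 were Gbp8 (1.74 ± 0.23, dim in CDEP lungs), Irgm2 (1.64 ± 0.23), Gbp2b (1.43 ± 0.21), Gbp7 (1.27 ± 0.18), Irgm1 (1.25 ± 0.19), Ifi47 (1.08 ± 0.23), Gbp2 (1.06 ± 0.19) and Gbp3 (1.05 ± 0.13). GBP genes are near copies of each other, and signal shared between their probes was not tested.

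Of 14 genes usually assigned to type I interferon 6 were higher and none lower, with a median of 0.57 and all 14 values above 0. With the RNA quality covariates the median was 0.77 and none of the 6 passed. None of the 6 passed in every fit with 1 array left out. Ifit1, an antiviral protein gene, had 8.41, 8.63 and 8.38 log2 units in CDEP/OVA lungs, against 7.64, 7.38 and 7.69 in CDEP lungs. The groups were separate and the change was 0.90 ± 0.18 (SE, adjusted p = 0.0074). Oas1a (0.85 ± 0.18, SE, adjusted p = 0.0103), an RNA-sensing synthetase gene, and Ifit2 (0.68 ± 0.16, SE, adjusted p = 0.0211) also rose.

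**Figure D2:**
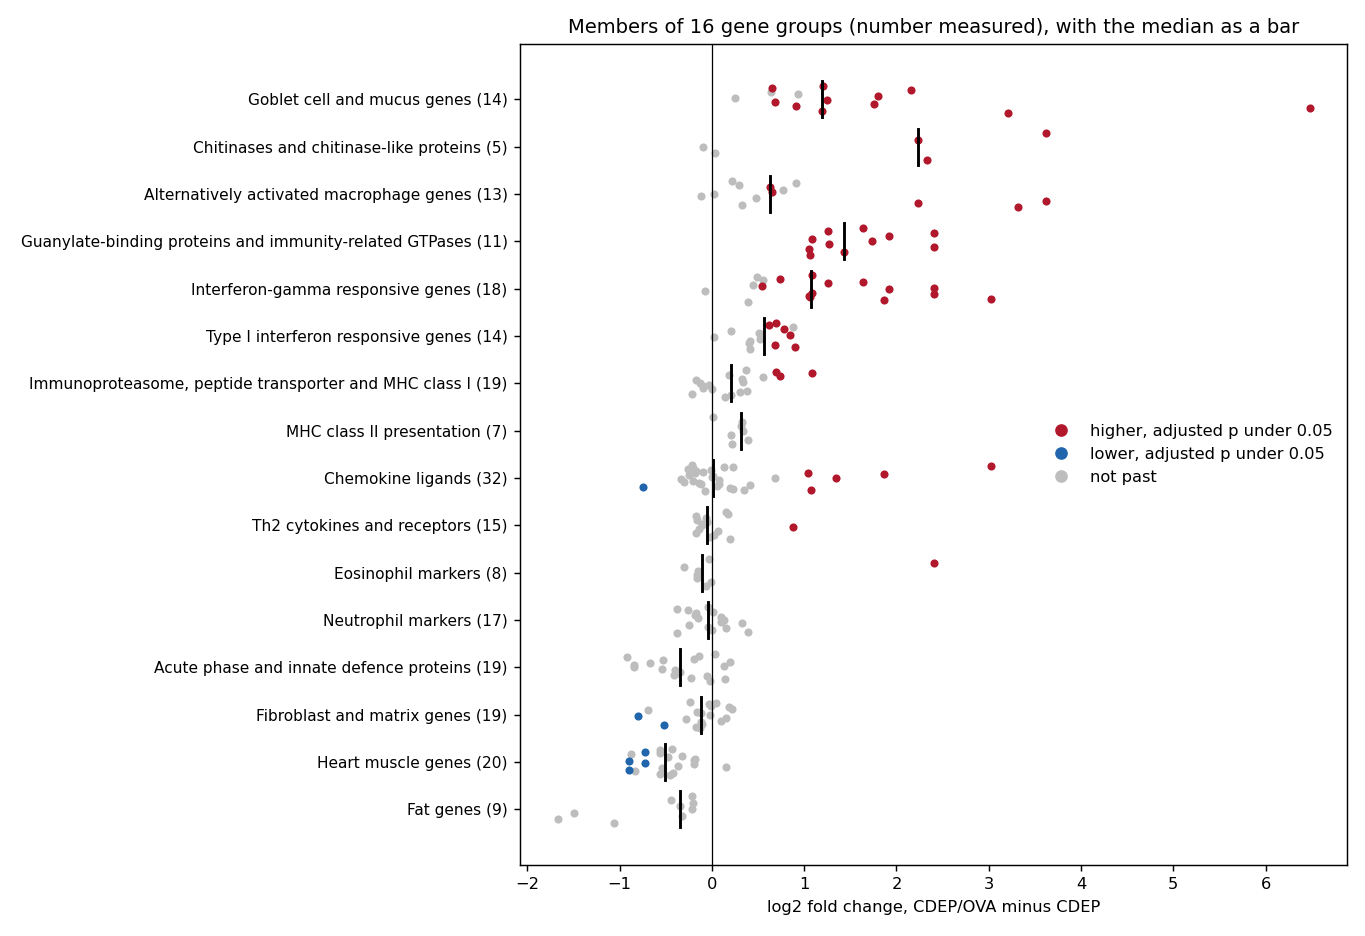
Log2 fold change of CDEP/OVA over CDEP for each measured member of 16 gene groups (number in brackets), with red for higher, blue for lower and grey for genes not past an adjusted p of 0.05, and a black bar at the median. The GBP and IRG family lies wholly to the right of 0 with 11 of 11 called, the goblet list has 11 of 14 called, and 19 of 20 heart muscle genes lie to the left of 0.

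None of 19 acute phase and innate defence genes passed in either direction, and 15 of 19 had values below 0 (median -0.35, and -0.24 with the RNA quality covariates). In CDEP against Saline lungs, a comparison that shares the CDEP arrays, 12 of the 19 were higher, and 2.28% of all genes were. Saa3, a serum amyloid A gene, had 11.11, 11.63 and 10.64 log2 units in CDEP/OVA lungs, against 11.94, 12.23 and 11.98 in CDEP lungs, a difference of -0.93 ± 0.49 (SE, adjusted p = 0.273). Orm1, which encodes orosomucoid, had 7.18, 7.11 and 6.29 log2 units in CDEP/OVA lungs, against 7.65, 7.66 and 7.81 in CDEP lungs, a difference of -0.85 ± 0.38 (SE, adjusted p = 0.199). In both genes the CDEP/OVA lungs lay below the CDEP lungs without overlap, as in 14.3% of all genes tested, and neither passed. Of 17 neutrophil markers none passed (median -0.05, and 0.08 with the RNA quality covariates), and S100a8, a neutrophil granule protein gene, differed by -0.26 ± 0.28 (SE, adjusted p = 0.606). Cxcl1 (-0.25 ± 0.33, SE, adjusted p = 0.694) and Ccl2 (0.19 ± 0.22, SE, adjusted p = 0.63), which encode attractants of neutrophils and monocytes, had overlapping arrays. The values of S100a8, Cxcl1 and Ccl2 change sign with 1 array left out. Csf2, a growth factor gene for granulocytes and macrophages, had 6.12, 6.02 and 5.86 log2 units in CDEP/OVA lungs, against 6.51, 6.46 and 6.65 in CDEP lungs and fell (-0.54 ± 0.13, SE, adjusted p = 0.0299). It passed without CDEP/OVA replicate 1 and missed without any one of the other 5 arrays.

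Of 32 chemokine ligand genes, 5 were higher (Cxcl9, Cxcl10, Cxcl11, Ccl11 and Ccl8) and 1 was lower, with a median of 0.01. All 6 calls were kept with the RNA quality covariates (median 0.13). The lower one was Ccl20, whose product attracts CCR6-bearing cells, with 5.62, 5.45 and 5.33 log2 units in CDEP/OVA lungs, against 6.25, 6.13 and 6.26 in CDEP lungs. Its groups were separate, and it fell in CDEP/OVA lungs (-0.75 ± 0.14, SE, adjusted p = 0.003), with any array left out as well. Genes of particle metabolism showed no call: Cyp1a1, a target of the aryl hydrocarbon receptor, differed by 0.23 ± 0.26 (SE, adjusted p = 0.633), Cyp1b1 by -0.43 ± 0.22 (SE, adjusted p = 0.261), and the heme oxygenase gene Hmox1 by -0.33 ± 0.16 (SE, adjusted p = 0.246).

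The genes lower with OVA changed less than the higher ones, with 3 of the 15 lowest called with any array left out. Hnrnpab, an RNA-binding protein gene, had 10.53, 9.99 and 10.84 log2 units in CDEP/OVA lungs, against 12.26, 12.10 and 11.66 in CDEP lungs, a log2 fold change of -1.55 ± 0.23 (SE, adjusted p = 0.000291). This value rests on 1 of 7 probe sets, and none of the other 6 was lower at an adjusted p of 0.05 (their log2 fold changes ran from -0.10 to 0.52). Ehd2, a membrane-remodelling ATPase gene of caveolae, had 8.44, 8.31 and 8.01 log2 units in CDEP/OVA lungs, against 9.55, 9.55 and 9.40 in CDEP lungs. The groups were separate by a wide margin and the change was -1.25 ± 0.16 (SE, adjusted p = 5.35e-05). A second probe set of Ehd2 gave -0.44 ± 0.20 and the remaining one 0.22 ± 0.20, neither past the threshold. Hamp, which encodes the iron hormone hepcidin, had 5.18, 5.23 and 5.02 log2 units in CDEP/OVA lungs, against 6.01, 6.46 and 5.87 in CDEP lungs, a change of -0.97 ± 0.15 (SE, adjusted p = 0.000299) that both of its probe sets gave. With the RNA quality covariates Hnrnpab stood at -1.91 ± 0.25 (adjusted p = 0.000149), Ehd2 at -0.79 ± 0.17 (adjusted p = 0.0228) and Hamp at -0.79 ± 0.19 (adjusted p = 0.0598).

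Mt1, a metal-binding metallothionein gene, had 7.89, 7.65 and 7.47 log2 units in CDEP/OVA lungs, against 8.09, 9.14 and 8.81 in CDEP lungs, a change of -1.01 ± 0.27 (SE, adjusted p = 0.0412). CDEP replicate 1 lay near the CDEP/OVA lungs, and the call was lost without any one of CDEP/OVA replicates 2 and 3 and CDEP replicates 2 and 3. The other, dimmer probe set of Mt1 gave -0.18 ± 0.13 and missed the threshold. Fzd4, a Wnt receptor gene, fell by 0.96 ± 0.21 (SE, adjusted p = 0.0151), Epas1, the gene of a hypoxia-inducible factor, by 0.86 ± 0.20 (SE, adjusted p = 0.0227), and Foxf1, a transcription factor gene of lung mesenchyme and endothelium, by 0.79 ± 0.17 (SE, adjusted p = 0.0151). The other probe set of Fzd4 gave -0.39 ± 0.11 and missed the threshold. The endothelial list as a whole had no call in 20 genes (median -0.01). Dcn, the matrix proteoglycan decorin, had 8.38, 8.41 and 8.86 log2 units in CDEP/OVA lungs, against 9.40, 9.33 and 9.30 in CDEP lungs, a change of -0.80 ± 0.20 (SE, adjusted p = 0.0306), and Col1a1, a chain of collagen I, one of -0.52 ± 0.14 (SE, adjusted p = 0.0444). These were the 2 called of 19 fibroblast and matrix genes (median -0.12). Neither of the 2 passed with the RNA quality covariates or with the heart and fat covariates (median -0.11 in each). Neither passed in every fit with 1 array left out. A second, dimmer probe set of Col1a1 gave 0.01 ± 0.12 and missed the threshold. Scara5, a ferritin receptor gene, changed by -0.88 ± 0.20 (SE, adjusted p = 0.0211), and its other probe set by -0.36 ± 0.12, which missed the threshold.

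The remaining 6 of the 15 lowest genes are known from striated muscle: Cox6a2 (-0.92 ± 0.18), a muscle cytochrome oxidase subunit, the myosin light chain genes Myl1 (-0.91 ± 0.21) and Myl7 (-0.90 ± 0.23), the oxygen store myoglobin Mb (-0.90 ± 0.22), the sarcomere protein gene Tcap (-0.86 ± 0.22) and the fatty acid binding protein gene Fabp3 (-0.83 ± 0.16). Of 20 heart muscle genes 4 were lower (Mb, Tnni3, Myl7 and Myl4), and 19 had values below 0, with a median of -0.50. Their mean level ran from 6.94 to 7.30 in CDEP/OVA lungs and from 7.51 to 7.79 in CDEP lungs, without overlap (exact permutation p = 0.1). All 9 fat genes had values below 0 (median -0.34), and none passed. Their mean level ran from 5.18 to 5.68 in CDEP/OVA and from 5.90 to 6.23 in CDEP lungs. The heart median was -0.70 with the RNA quality covariates, and none of the 4 calls passed. Dimmer second probe sets gave -0.13 ± 0.10 for Mb and -0.01 ± 0.10 for Myl4. With heart and fat levels as covariates, 66 of the 206 lower genes passed and all 206 kept their sign. The part of heart or fat tissue in the lower genes was not tested otherwise.

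**Figure D3:**
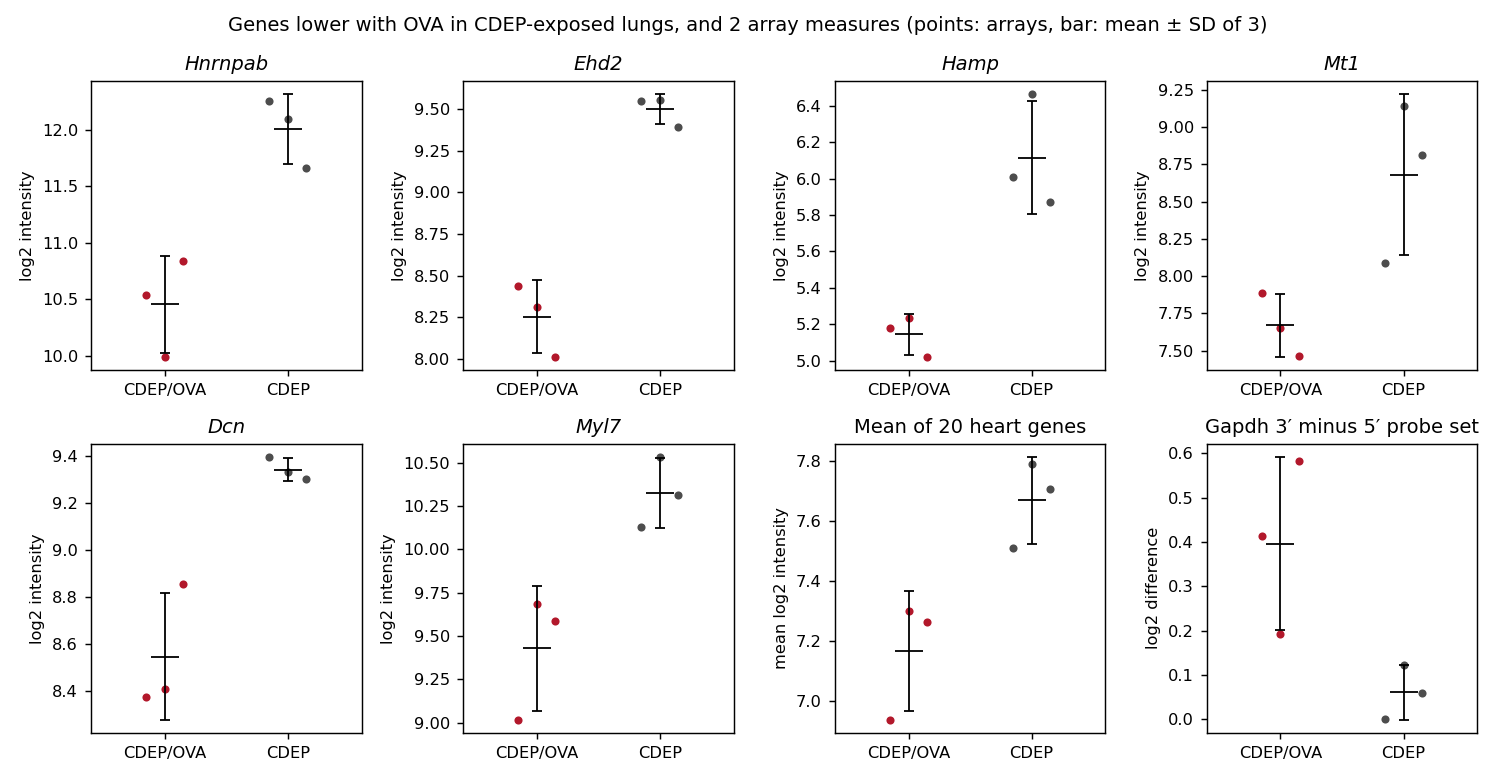
Log2 intensity of 6 genes lower with OVA, the mean of 20 heart muscle genes and the 3′ minus 5′ Gapdh difference on the 6 arrays, with CDEP/OVA in red left of CDEP in grey and bars for mean ± SD of 3. All 8 measures separate the groups, and for the 6 genes the rule that chose them required this. Mt1 of CDEP replicate 1 is at 8.09, close to the highest CDEP/OVA lung at 7.89.

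OVA had fewer called effects in the other backgrounds. With OVA in saline no gene passed in limma (818 of 12393 genes, 6.6%, had an unadjusted p under 0.05). With N-DEP 14 genes were higher (0.113%) and 20 lower (0.161%), and 9.64% had an unadjusted p under 0.05. With A-DEP 6 were higher (0.0484%) and 2 lower (0.0161%), and 9.95% had an unadjusted p under 0.05. Counts past a threshold do not show that effects differ, so the differences were tested. Against the saline background, the OVA effect differed in 46 genes, 32 more positive (0.258%) and 14 more negative (0.113%) with C-DEP. This count ran from 17 without Saline/OVA replicate 2 to 73 without Saline replicate 2, and was 26 without Saline/OVA replicate 3, 30 without Saline replicate 1 and 22 without CDEP replicate 2. The OVA effect on Chil4 was 3.62 ± 0.27 with C-DEP and 0.08 ± 0.27 in saline, a difference of 3.54 ± 0.38 (SE, adjusted p = 1.83e-05). Arg1 differed by 3.10 ± 0.47 (SE, adjusted p = 0.00151), Cxcl9 by 2.87 ± 0.46 (SE, adjusted p = 0.00325), Iigp1 by 2.45 ± 0.43 (SE, adjusted p = 0.00582) and Chil3 by 2.40 ± 0.47 (SE, adjusted p = 0.0192). Of the GBP and IRG family 8 of 11 differed, of the goblet list 3 of 14 and of the interferon-gamma list 6 of 18. These counts are from the fit without the RNA quality covariates. Clca1 did not pass (4.39 ± 1.27, SE, adjusted p = 0.134), and its 3 Saline/OVA lungs had an SD of 2.75.

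The RNA quality measure moved with OVA in different directions across the backgrounds. The 3′ minus 5′ Gapdh difference was 0.396 ± 0.196 in CDEP/OVA and 0.0607 ± 0.0617 in CDEP lungs, and 0.369 ± 0.136 in NDEP/OVA and 0.136 ± 0.174 in NDEP lungs. It was 0.195 ± 0.0895 in ADEP/OVA and 0.256 ± 0.132 in ADEP lungs, and 0.185 ± 0.156 in Saline/OVA and 0.362 ± 0.285 in Saline lungs (SD, n = 3 each). The difference of Actb was likewise higher with OVA in the C-DEP and N-DEP backgrounds and lower in the A-DEP and saline backgrounds. With both measures as covariates, a fit added after the data were seen, 13 genes differed from the saline background, 8 of them among the 46, and all 46 kept their sign. Arg1 then differed by 3.92 ± 0.60 (SE, adjusted p = 0.0067), Cxcl9 by 3.67 ± 0.62 (SE, adjusted p = 0.00976), Chil4 by 2.60 ± 0.46 (SE, adjusted p = 0.0166) and Gbp6 by 2.56 ± 0.41 (SE, adjusted p = 0.00685). Iigp1 at 2.76 ± 0.57 (SE, adjusted p = 0.0539) and Chil3 at 2.87 ± 0.62 (SE, adjusted p = 0.0925) no longer passed. Igtp at 1.99 ± 0.44 (SE, adjusted p = 0.0972) and Muc5ac at 1.21 ± 0.27 (SE, adjusted p = 0.0972) also missed the threshold in this fit. Against N-DEP 2 genes passed, with Gbp6 at 1.89 ± 0.30 (SE, adjusted p = 0.0303). Against A-DEP none passed in limma (1020 genes had an unadjusted p under 0.05).

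Across 12393 genes, which are not independent replicates, the OVA effect on C-DEP correlated with that on N-DEP at Pearson's r = 0.54 and Spearman's rho = 0.35. For A-DEP these were 0.13 and -0.10, and for saline 0.14 and 0.10, and no array is shared between the effects. The 3′ minus 5′ measures rose with OVA on average in the C-DEP and N-DEP backgrounds alike, and their part in this likeness was not tested. 203 of the 238 higher and 174 of the 206 lower genes had the same sign with N-DEP, for A-DEP 149 and 122, and for saline 128 and 118. The share of all genes with the same sign was not counted, so these counts have no base to be read against. The median of the 14 goblet genes was 1.20 with C-DEP and 0.84 with N-DEP. The OVA effect on Clca1 was 6.48 ± 0.90 with C-DEP and 7.17 ± 0.90 with N-DEP (difference -0.69 ± 1.27, SE, adjusted p = 0.925). Of all genes tested, 1 passed the test of the difference (0.00807%). It was Gbp6, at 2.41 ± 0.21 with C-DEP and 0.61 ± 0.21 with N-DEP, a difference of 1.80 ± 0.30 (SE, adjusted p = 0.0324). It did not pass without any one of CDEP/OVA replicate 2, NDEP/OVA replicate 2 or the single CDEP or NDEP arrays, where no gene passed. The count was 10 without CDEP/OVA replicate 3, 4 without NDEP/OVA replicate 1 and 2 without NDEP/OVA replicate 3. Cxcl9 differed by 1.92 ± 0.46 (SE, adjusted p = 0.269) and Igtp by 1.28 ± 0.32 (SE, adjusted p = 0.269), both short of the threshold, which does not show equal effects. The median of the 11 GTPases was 1.43 with C-DEP, 0.40 with N-DEP, 0.48 with A-DEP and 0.00 in saline.

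Against A-DEP the OVA effect differed in 3 genes, 2 more positive (0.0161%) and 1 more negative (0.00807%). An unadjusted p under 0.05 in limma was seen in 2243 genes (18.1%) for this difference. That share was 12.7% for the difference from saline and 8.31% for the difference from N-DEP. So few calls do not show equal effects. The OVA effect on Chil4 was 3.62 ± 0.27 with C-DEP and 0.89 ± 0.27 with A-DEP, a difference of 2.74 ± 0.38 (SE, adjusted p = 0.00193), and 2.01 ± 0.41 (SE, adjusted p = 0.11) with the RNA quality covariates. B3gnt5, a glycosyltransferase gene, differed by 0.93 ± 0.17 (SE, adjusted p = 0.0468) and Cacna1b, a neuronal calcium channel gene, by -0.82 ± 0.14 (SE, adjusted p = 0.03). The count of 3 called genes was between 1 and 37 with an array left out. It was 37 without ADEP/OVA replicate 2, 25 without ADEP/OVA replicate 3, 21 without CDEP/OVA replicate 3, 9 without CDEP/OVA replicate 1, and 1 without any one of ADEP/OVA replicate 1, ADEP replicate 1, CDEP replicate 2 and CDEP replicate 3. The OVA effect on Ccl11 was 1.07 ± 0.14 with C-DEP, 1.05 ± 0.14 with A-DEP and 0.68 ± 0.14 with N-DEP.

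**Figure D4:**
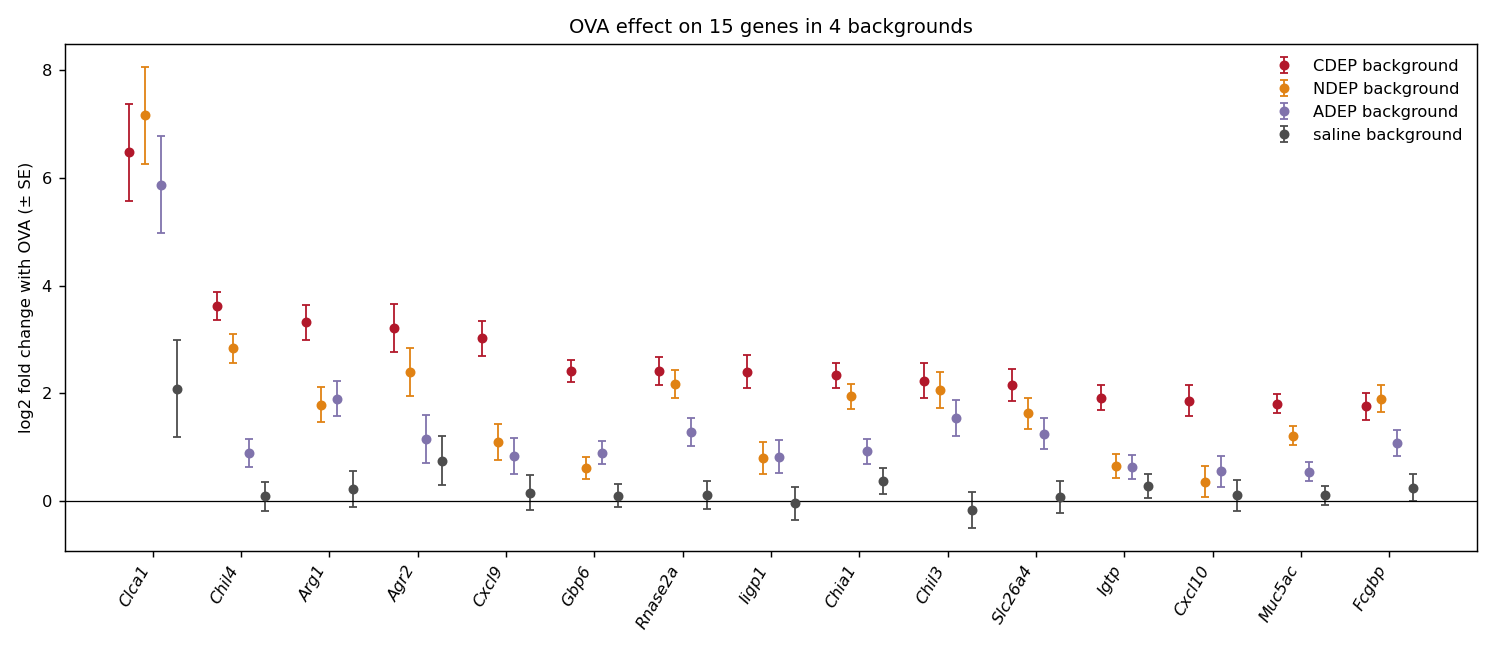
Log2 fold change with OVA (points, bars ± SE from limma) for the 15 genes highest in CDEP/OVA against CDEP, in the CDEP, NDEP, ADEP and saline backgrounds from left to right. These genes were chosen by their change in the CDEP background, and Clca1 and Fcgbp are the 2 whose N-DEP value is above the C-DEP value.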

How the data were processed

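Lung RNA was measured on 1-colour Affymetrix arrays, 1 per mouse. The authors deposited 1 RMA-normalized intensity for each probe set, per the submitters' processing notes, with no version or settings stated there. The smallest was 5.98 and the largest 18195.5 (medians per array 72.2 to 75.5), so the scale is linear, and log2 was taken. RMA compresses differences of dim probe sets, and the number of arrays limits the precision. Of 22690 probe sets, 64 controls, 691 with several symbols and 1555 with none in the platform annotation were left out, and 20380 with 1 symbol gave 12393 genes, 1 probe set per gene by the highest mean over 24 arrays. No array was a copy of another (highest correlation 0.996).

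limma 3.58.1 in R 4.3.3 fitted 8 group means to 24 arrays, and tests were two-sided with Benjamini-Hochberg adjustment over all genes within each comparison. Differences between backgrounds were interaction contrasts. Lists are described by counts and medians. The members and lists were chosen with earlier results of these data known. Genes named are the 15 highest and 15 lowest called genes with arrays that do not overlap, up to 4 of smallest p per list, 5 highest and 5 lowest per difference, and 17 genes always given: Cyp1a1, Cyp1b1, Hmox1, Saa3, Orm1, Cxcl1, Ccl2, S100a8, Muc5ac, Clca1, Retnla, Chil4, Ccl11, Il13, Il5, Epx and Slc26a4. The remaining members of the goblet, GTPase and chemokine groups, Mgl2, Irf1, Il4, Ifng, Sftpc, Cd274, Ido1 and the genes of the closing observations were added after their values were seen. Deviations from the group means were little correlated between same-numbered CDEP/OVA and CDEP replicates (r from -0.07 to 0.06). Python 3.11.15 with pandas 2.3.3, scipy 1.17.1 and matplotlib 3.10.9 was used for counts, permutation tests, motif search and plots. Scripts were tested on simulated data. Alternatives were all probe sets, a filter on dim genes, a further quantile normalization, weights per array, a robust trended variance, the replicate number as a block, only the 6 arrays, each array left out, and covariates for RNA quality or for heart and fat levels. The RNA quality covariates were added to the differences between backgrounds after seeing the data.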

Additional observations from a re-analysis of the deposited data

Results flagged for a closer look

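Values in this section are differences on the log2 scale between the OVA effect with C-DEP and the OVA effect in another background, each past an adjusted p of 0.05 in limma's test of the difference. Against the saline background these were 3.54 for Chil4, 3.1 for Arg1, 2.87 for Cxcl9, 2.45 for Iigp1 and 2.4 for Chil3 on the positive side. On the negative side they were -1.32 for Ehd2, -1.07 for Rps4l, a ribosomal protein gene, -1.02 for Hamp, -0.914 for Rraga, which encodes a GTPase of the mTORC1 pathway, and -0.863 for Tmem243. The OVA effect on Rps4l was -0.33 on C-DEP and 0.73 in saline. Rraga had 6.07, 5.99 and 5.85 log2 units in CDEP/OVA lungs, against 6.76, 6.70 and 6.81 in CDEP lungs, a change of -0.79 ± 0.11 (SE, adjusted p = 0.000129) with separate groups.

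Against N-DEP the difference was 1.8 for Gbp6. Against A-DEP the differences were 2.74 for Chil4, 0.934 for B3gnt5 and -0.82 for Cacna1b. B3gnt5 rose on C-DEP (0.51 ± 0.12) and had -0.43 ± 0.12 on A-DEP, and Cacna1b fell on C-DEP (-0.52 ± 0.10) and had 0.30 ± 0.10 on A-DEP. Chil4, Arg1 and Cxcl9 against saline and Gbp6 against N-DEP also passed with the RNA quality covariates, and the other 10 differences did not. No cause was tested for any of these.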

How the results depend on the processing

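No called gene or difference that was followed through the alternatives changed sign in them. Values that were not called did, with 1 array left out (Ccl2 from -0.15 to 0.51, Cxcl1 from -0.73 to 0.04, S100a8 from -0.48 to 0.01), and the neutrophil marker median of -0.05 was 0.08 with the RNA quality covariates. Higher calls did not always outnumber lower ones: they were 162 against 186 with quantile normalization and 175 against 199 without CDEP/OVA replicate 1. The 444 genes called between CDEP/OVA and CDEP lungs became 961 (430 higher, 531 lower) when all probe sets were tested, which are more numerous, 953 (493 higher, 460 lower) with array weights, 64 (49 higher, 15 lower) with RNA quality covariates and 192 (105 higher, 87 lower) with heart and fat covariates. Under the RNA quality covariates the median SE of the 238 higher genes was 0.166, against 0.130 without, and their median change 0.47, against 0.52. With 1 array left out the total ran from 98 to 374, the higher genes from 65 to 175 and the lower from 33 to 199. Genes whose OVA effect differed from that in saline numbered 46, and 127 with all probe sets, 263 with array weights, 13 with RNA quality covariates and 17 to 73 with 1 array left out. Against N-DEP the 1 gene became 0 with all probe sets, with quantile normalization and with the trended robust variance, 6 with array weights, 2 with RNA quality covariates and 0 to 10 with 1 array left out (1030 genes had an unadjusted p under 0.05). Against A-DEP the 3 genes became 7 with all probe sets, 10 with the filter on dim genes, 9 with quantile normalization, 191 with array weights, 0 with RNA quality covariates and 1 to 37 with 1 array left out. The causes were not tested.

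The sample titles do not say whether replicate numbers pair the mice. Same-numbered CDEP/OVA and CDEP arrays had deviation correlations of 0.03, -0.07 and 0.06. Arrays of different number had correlations from -0.10 to 0.09. These few values cannot show that no pairing exists. With the replicate block 476 genes were called between CDEP/OVA and CDEP lungs, 47 differed from saline, 1 from N-DEP and 12 from A-DEP.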

Other observations

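Further genes that rose with OVA in C-DEP lungs, all picked after their values were seen, include Scin, which encodes the actin-severing protein scinderin, with 6.22, 5.89 and 6.93 log2 units in CDEP/OVA lungs, against 4.58, 4.51 and 4.72 in CDEP lungs (change 1.74 ± 0.17, SE, adjusted p = 1.14e-06). F10, which encodes coagulation factor X, rose by 0.94 ± 0.14 (SE, adjusted p = 0.000404). Its other, dimmer probe sets gave 0.23 ± 0.13 and 0.12 ± 0.10 and missed the threshold. The lectin gene Cd209e, dim in CDEP lungs, rose by 0.73 ± 0.11 (SE, adjusted p = 0.000443). Mitf, a transcription factor gene, rose by 0.70 ± 0.12 (SE, adjusted p = 0.00212). Its OVA effect did not differ past the threshold from that with N-DEP (difference 0.75 ± 0.17, SE, adjusted p = 0.269) or with A-DEP (0.77 ± 0.17, SE, adjusted p = 0.074). A far dimmer probe set of Mitf went the other way, at -0.36 ± 0.11, and missed the threshold. Egr2, an early response transcription factor gene, rose by 0.71 ± 0.11 (SE, adjusted p = 0.00052). Its other, dimmer probe set gave 0.32 ± 0.11 and missed the threshold.

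Genes of the respiratory chain and ATP synthase, mainly nuclear-encoded subunits, were collected by symbol after results were seen. The symbols also took in the assembly factor gene Ndufaf1. Of 80 measured 7 were lower and none higher, with a median of -0.19, against -0.01 for all genes. Cox6c had 10.09, 9.79 and 9.55 log2 units in CDEP/OVA lungs, against 10.29, 10.89 and 10.33 in CDEP lungs, a change of -0.69 ± 0.16 (SE, adjusted p = 0.0211). Its second, dimmer probe set gave -0.12 ± 0.21 and missed the threshold. None of the 7 passed with the RNA quality covariates, with the heart and fat covariates (median -0.11) or in every fit with 1 array left out. The 7 include Cox6a2 and Cox8b, forms found in striated muscle, and the heart muscle genes were lower in the same lungs (median -0.50). Cytosolic ribosomal protein genes had 2 of 42 lower and a median of -0.10, while 1.66% of all genes were lower. Neither call was kept with the RNA quality covariates, with the heart and fat covariates or in every fit with 1 array left out. The fibulin gene Fbln1, picked after its values were seen, had 6.73, 6.44 and 6.60 log2 units in CDEP/OVA lungs, against 7.40, 7.29 and 7.42 in CDEP lungs (change -0.78 ± 0.13, SE, adjusted p = 0.0015). Its second probe set gave -0.33 ± 0.12 and missed the threshold. Collagens had 1 of 36 lower (Col1a1), near the 1.66% of all genes, and a median of -0.11. The 1 call was lost with either set of covariates and was not kept in every fit with 1 array left out.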
